A study of Homo sapiens with 12 samples.

Results

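Collagen genes were described in 143B cells, an established human line from osteosarcoma, a bone tumour, with a genotype labelled WT. All gene symbols of the form COL, a number, A and a number were taken from the deposited count tables, and those with at least 10 counts summed over the 12 RNA-seq libraries were kept. This gave 34 collagen genes of 24180 symbols. Another 9 collagen symbols fell under that minimum (COL6A6, COL9A1, COL10A1, COL11A1, COL14A1, COL21A1, COL23A1, COL25A1 and COL28A1), and COL1A2 was not among the symbols listed. The 34 genes comprised 9 fibrillar, 8 basement membrane and 17 other collagens. Of these, 27 passed the filter on low counts and were tested, 8, 6 and 13 by class, and 7 were too low to test (COL3A1, COL4A3, COL6A5, COL15A1, COL19A1, COL20A1 and COL26A1). A gene that passed only through a group where it was high had to differ, so counts among the tested genes are not counts over all 34.

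There were 4 groups of 3 libraries. NC is the labelled control, BSG is named without further detail, and the titles equate M-BSG with 5-MNP-BSG and M-BSG-Hot with 5-MNP-BSG (+). The series title concerns a borosilicate bioactive glass and magnetic hyperthermia. All 12 samples, the controls included, carry an identical treatment text that names the magnetic bioactive system and an alternating magnetic field. Every label, again with the controls included, gives a field current of 20 A and 10% serum. The labels therefore do not state which material, field, dose or time each group received. No label states whether a group's 3 samples came from separate cultures, so p-values reflect only how far these samples differ, and that spread could be technical.

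Collagens are extracellular proteins whose chains wind around each other into a helix, which needs glycine at a fixed place in each short repeat. Fibrillar collagens (types I, II, III, V, XI, XXIV and XXVII) have a long helix and pack into fibrils, and in types XXIV and XXVII that helix is shorter and interrupted. Type IV collagens form the network of basement membranes, and the remaining families include beaded filaments (type VI), fibril-associated collagens, anchoring fibrils (type VII) and membrane-spanning collagens. Bone matrix is mostly type I collagen, and osteosarcoma is defined by tumour cells that lay down osteoid.

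The helix repeat can be seen in the coding sequences, and stretches from 4 of the genes on which the results turn are shown for it. Each is a run of 60 coding bases, 5′ to 3′, from the longest coding sequence of the gene in GENCODE 29, starting where its longest uninterrupted run of repeats starts. Glycine codons are in capitals.
COL27A1: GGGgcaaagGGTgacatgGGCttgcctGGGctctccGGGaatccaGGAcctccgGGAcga
COL4A2: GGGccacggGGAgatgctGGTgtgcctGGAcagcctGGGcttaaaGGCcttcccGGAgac
COL6A3: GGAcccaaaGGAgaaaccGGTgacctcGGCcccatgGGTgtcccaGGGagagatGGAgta
COL7A1: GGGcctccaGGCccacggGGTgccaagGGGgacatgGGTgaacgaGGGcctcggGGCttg
All 4 stretches hold 7 glycine codons at the same spacing. They begin at codon 688 of COL27A1, 782 of COL4A2, 2168 of COL6A3 and 2527 of COL7A1. The genes differed in how long the run went on. In the 9 fibrillar genes the longest run was 216 to 343 repeats (median 338), against 30 to 66 (median 39.5) in the 8 basement membrane genes and 23 to 113 (median 57) in the 17 others. COL1A1 had an unbroken run of 338 repeats, COL27A1 of 217 and COL4A2 of 66. In COL6A3 the longest run was 45 repeats within 3176 codons, since most of that chain lies outside the helix. In COL7A1 the longest run was 75 within 2943 codons, 1 of 14 runs of at least 10 repeats. Such runs together held 391 repeats in COL7A1 (39.9% of codons), 87 in COL6A3 (8.22%) and 355 in COL1A1 (72.8%).

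Upstream sequences are shown for the collagen genes that were lower in BSG, as far as the RefSeq promoter table (GRCh38.p14) holds them, and for the interval between the starts of COL4A1 and COL4A2, the pair with the most counts of the basement membrane class. GC boxes (the SP1 site GGGCGG, or CCGCCC on the other strand) are in capitals, and each sequence is read 5′ to 3′ on its gene's strand up to the base before the start.
COL7A1: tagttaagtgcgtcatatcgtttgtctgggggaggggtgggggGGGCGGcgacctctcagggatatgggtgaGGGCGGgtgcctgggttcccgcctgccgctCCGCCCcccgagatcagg
COL27A1: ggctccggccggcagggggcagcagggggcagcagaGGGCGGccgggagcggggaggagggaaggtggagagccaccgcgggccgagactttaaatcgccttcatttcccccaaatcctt
COL6A3: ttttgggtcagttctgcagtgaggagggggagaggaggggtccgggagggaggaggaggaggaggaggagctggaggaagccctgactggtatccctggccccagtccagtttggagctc
COL5A1: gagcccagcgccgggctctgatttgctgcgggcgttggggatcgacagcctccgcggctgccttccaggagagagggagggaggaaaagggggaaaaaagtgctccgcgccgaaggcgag
COL4A1 to COL4A2: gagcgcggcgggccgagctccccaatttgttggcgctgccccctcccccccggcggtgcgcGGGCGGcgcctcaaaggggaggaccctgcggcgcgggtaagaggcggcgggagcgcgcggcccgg
These windows lie at chr3:48595330-48595449 (minus strand) for COL7A1, chr9:114155417-114155536 (plus) for COL27A1, chr2:237414165-237414284 (minus) for COL6A3 and chr9:134641683-134641802 (plus) for COL5A1. The interval of 126 bases between COL4A1 and COL4A2, which are read in opposite directions from it, lies at chr13:110307158-110307283 and is printed on the plus strand. The printed stretch of COL7A1 held 3 GC boxes, 77, 48 and 18 bases before its start, and that of COL27A1 held 1. Over the whole 250 bases before the start, COL7A1 held 3, COL27A1 and COL5A1 held 2 each, and COL6A3 held 0. The COL4A3 and COL4A4 starts were 418 bases apart and those of COL4A5 and COL4A6 were 379 bases apart.

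The table held an upstream window for 24 of the 34 genes (31 windows, since some genes have several starts). Each window of 250 bases was searched on both strands for 5 motifs, and the matches are a description of letters, not of binding. The GC box GGGCGG was found in 20 of 31 windows (64.5%, of 17 genes), against 42.6% of all 35116 windows, and the median GC content was 64.8% against 58% over all windows. TATAAA was found in 5 of 31 windows (16.1%, against 10.7% of all windows). Paired heat shock half-sites, GAANNTTC, were found in 3 of 31 (9.68%, against 5.78%), in windows of COL4A5, COL4A6 and COL7A1. Some collagen windows overlap each other, such as those of COL4A5 and COL4A6, so they are not independent. The AP-1 site TGANTCA (6.57% of all windows) and the cAMP response element TGACGTCA (1.65%) were found in 0 of 31. None of these motifs contains another.

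Library totals were 34434993 to 38163152 counts. Levels within a gene are given as CPM, the count scaled to a common TMM-adjusted library total. A count of 0 is compatible with as many as 3 counts, equal to 0.0779 to 0.0851 CPM, for counting error alone. BSG 1 stood apart. Its level of long genes was low, with a slope of -0.18 log2 units per doubling of gene length against -0.08 to 0.09 in the other 11 libraries, and ribosomal protein genes took 10.3% of its counts against 6.84% to 9.02%. Its counts differed from those of BSG 2 and BSG 3 by a chi-square of 60.9 and 44.9 per degree of freedom, against 7.48 between BSG 2 and BSG 3. M-BSG 1 and M-BSG-Hot 3 leaned the same way, at -0.08 and -0.07 per doubling. The chi-square per degree of freedom was 56.2 and 32.8 between M-BSG 1 and its replicates, against 8.27 between M-BSG 2 and M-BSG 3. It was 40.4 and 17.8 between M-BSG-Hot 3 and its replicates, with 15.4 between M-BSG-Hot 1 and M-BSG-Hot 2, so BSG 1 was not alone in its distance from its group. Collagen genes are long, and the calls and the main differences in BSG are also given without BSG 1. Of the 8 osteoblast-lineage markers fixed for the check of the label, RUNX2 was at 10.2 to 16.9 CPM and SPP1 at 9.94 to 14.6, while SP7 and BGLAP were at or near 0 (4 and 16 counts over all libraries). Sums of markers of other cell types differed from NC in part. The 4 epithelial markers in the tables, almost all EPCAM, summed to 13.9 to 15.5 CPM in NC and 16.6 to 22.3 in BSG. They overlapped with NC in M-BSG (14.5 to 18.2) and in M-BSG-Hot (14.7 to 16.8). Fibroblast and stromal markers summed to 136 to 151 CPM in NC and 114 to 137 in BSG, and immune markers to 134 to 153 and 130 to 139. Both sums overlapped with NC in every group. The 4 endothelial markers were low, at 1.42 to 1.45 CPM in NC, up to 1.54 in BSG, 1.29 to 1.78 in M-BSG and 1.82 to 2.68 in M-BSG-Hot, the last without overlap with NC. Most of that was PECAM1, and VWF was at 0 counts in 2 libraries. Their part in the results was not tested.

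The 8 highest collagen genes in the control cells were of the network, beaded filament, membrane-spanning and fibril-associated types. Levels are compared between genes as FPKM, which divides by gene length, as mean ± SD over 3 NC libraries. COL4A2 stood first at 64.7 ± 1.80, followed by COL6A2 at 41.2 ± 0.637, COL6A3 at 35.4 ± 3.66 and COL13A1 at 30.6 ± 1.15. COL4A1 was at 18.0 ± 0.980, COL6A1 at 16.1 ± 0.281, COL9A3 at 16.0 ± 0.909 and COL12A1 at 13.2 ± 1.13. The level and rank of COL4A1 rest on a gene length of 15595 bases, against 6446 for COL4A2. The neighbours COL6A3 and COL13A1 overlapped between libraries, as did COL6A1 and COL9A3, and the other steps among these 8 did not. COL27A1, the leading fibrillar gene, ranked 9 of 34 at 7.74 ± 0.172. Each library of it lay above every library of COL18A1 (4.31 ± 0.514), which encodes the precursor of endostatin.

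COL1A1, which encodes the main chain of bone collagen, ranked 18 of 34, at 1.50 ± 0.0673 FPKM in NC. It was above COL16A1 (1.08 ± 0.0428) without overlap but overlapped with COL8A1 (1.53 ± 0.191). The classical fibrillar genes of other tissues were lower still. COL2A1, the cartilage collagen, was at 0.0140 ± 0.0121, and COL3A1, a collagen of skin and vessels, was listed at 0 in all 3 NC libraries and held 10 counts over all 12. Fibrillar genes together made up 5.90% ± 0.0522 of the summed collagen FPKM in NC, basement membrane genes 33.2% ± 0.275 and the others 60.9% ± 0.225. Of the markers COL1A1, COL6A3 and COL2A1 given for these genes, only COL6A3 was among the 10 highest.

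**Figure D1:**
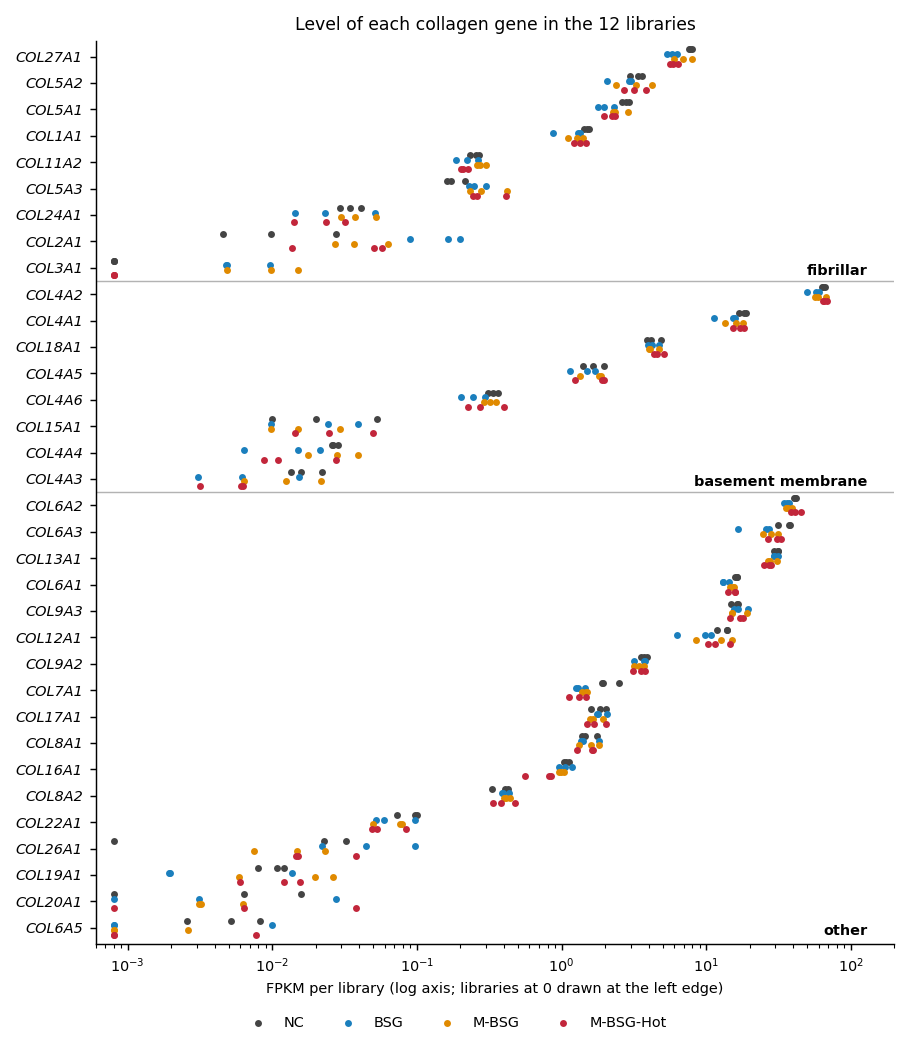
FPKM of the 34 collagen genes (log axis) in each of the 12 libraries, by class, with 1 point a library coloured by group and libraries at 0 drawn at the left edge. COL4A2, COL6A2, COL6A3 and COL13A1 sit at the right, COL1A1 in the middle, and COL7A1 shows its 3 NC points to the right of the other 9.

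The collagen share of all counts was 0.178%, 0.197% and 0.191% in NC and 0.133%, 0.162% and 0.158% in BSG. It was 0.155%, 0.184% and 0.168% in M-BSG, with 0.177%, 0.177% and 0.174% in M-BSG-Hot. BSG 1 was the lowest library, and the BSG libraries lay below the NC libraries without overlap. The M-BSG-Hot libraries also lay below NC (highest 0.1773%, against a lowest of 0.1784% in NC), and M-BSG overlapped. The mean share was 0.189% in NC and 0.151% in BSG, or 0.160% without BSG 1. The part of the length trend in this share was not tested. The class make-up differed by at most a few percentage points between group means. Fibrillar genes took 5.43% ± 0.285 of collagen FPKM in BSG, 5.97% ± 0.692 in M-BSG, with 5.24% ± 0.514 in M-BSG-Hot. Basement membrane genes took 33.4% ± 1.58, 34.0% ± 1.65 and 35.2% ± 1.89 in the same order. In bulk RNA, fewer cells expressing a gene and less RNA per cell cannot be told apart.

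BSG was compared with NC first. Of the 27 tested collagen genes, 4 fell (COL5A1, COL6A3, COL7A1 and COL27A1) and 1 rose (COL2A1), by edgeR's quasi-likelihood test with Benjamini-Hochberg adjustment over 15407 genes and a threshold of 0.05. That is 18.5% of them, against 11.7% of all genes tested (6.22% lower and 5.50% higher). BSG and NC libraries were apart, with no overlap, for 13 of 27 (48.1%), against 38.7% of all genes. The median log2 fold change was -0.14, against -0.02 over all genes, and 17 of 27 values were negative (share over all genes not given). At the lengths of these genes, the trend of all tested genes with length had a median of -0.12. By class, 2 of 8 fibrillar genes fell and 1 rose, 0 of 6 basement membrane genes passed (1 at an unadjusted p under 0.05), and 2 of 13 others fell.

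COL7A1, the chain of the fibrils that anchor basement membranes to the tissue beneath, was at 17.7, 22.3 and 17.3 CPM in NC and at 12.3, 13.4 and 12.4 in BSG. It was at 14.2, 12.8 and 14.0 in M-BSG and at 10.6, 12.2 and 14.3 in M-BSG-Hot. All 9 libraries of the other groups lay below the lowest NC library, and NC 2 was the highest of the 12. In BSG the log2 fold change was -0.59 (SE 0.12, edgeR adjusted p = 0.00772). The call was lost without NC 2 (adjusted p = 0.0515) and, at -0.39, when the length trend was removed (adjusted p = 0.0823). Over all alternatives the adjusted p ranged from 0.000281 to 0.0823, and without BSG 1 it was 0.0270.

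COL6A3, the long chain of type VI collagen, was at 324, 385 and 382 CPM in NC and at 187, 271 and 292 in BSG. It was at 269, 329.7 and 297 in M-BSG and at 287, 327 and 362 in M-BSG-Hot. BSG 1 was the lowest library, and the BSG libraries lay below the NC libraries without overlap. The log2 fold change in BSG was -0.54 (SE 0.15, edgeR adjusted p = 0.0290). It was -0.36 without BSG 1 (adjusted p = 0.0760), -0.50 without NC 2 (0.108) or without NC 3 (0.105), and -0.33 with the length trend removed (0.0446). Over all alternatives the adjusted p ranged from 0.00232 to 0.108.

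The fibrillar genes COL27A1 and COL5A1 fell by less. COL27A1, a fibrillar collagen known from cartilage, was at 66.7, 68.1 and 66.7 CPM in NC and at 50.6, 56.0 and 53.0 in BSG. It was at 55.5, 70.7 and 61.3 in M-BSG and at 57.7, 52.8 and 52.4 in M-BSG-Hot. The 3 NC libraries were close together, and all BSG and M-BSG-Hot libraries lay below them, while M-BSG overlapped. The change in BSG was -0.34 (SE 0.09, edgeR adjusted p = 0.0260). Leaving out NC 1, NC 2, NC 3, BSG 1 or BSG 3 lost the call (adjusted p = 0.0665 to 0.0935, and -0.29 without BSG 1), and removing the length trend left -0.15 (adjusted p = 0.135, range over all alternatives 0.00530 to 0.135).

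COL5A1, a chain of the type V collagen that regulates fibril width, was at 27.3, 28.8 and 30.4 CPM in NC and at 22.1, 24.4 and 19.4 in BSG. It was at 24.8, 30.5 and 24.9 in M-BSG and at 24.0, 25.1 and 22.0 in M-BSG-Hot. Again BSG and M-BSG-Hot lay below NC without overlap, and M-BSG overlapped. The BSG change was -0.39 (SE 0.11, edgeR adjusted p = 0.0312). It was not called without NC 1, NC 2, NC 3, BSG 1 or BSG 3 (adjusted p = 0.0551 to 0.126), and without BSG 1 the change stood at -0.39. With the length trend removed it was -0.16 (adjusted p = 0.317, range over all alternatives 0.00980 to 0.317).

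COL2A1, the main collagen of cartilage, was the collagen gene that rose. It held 2, 1 and 6 counts in NC and 44, 37 and 20 in BSG, then 14, 6 and 8 in M-BSG, with 11, 3 and 13 in M-BSG-Hot. These are 0.0567, 0.0260 and 0.158 CPM in NC and 1.23, 0.967 and 0.539 in BSG, so 2 of the 3 NC libraries were within what a count of 0 allows. Every BSG library lay above the other 9. The fitted rise in BSG was 10.9-fold (log2 3.45, SE 0.64, edgeR adjusted p = 0.00316), a value that rests on few NC counts. It passed in all alternatives that tested it (adjusted p 2.32e-05 to 0.0238), and was 3.18 on the log2 scale without BSG 1 (0.0117). The stricter count filter did not test it. The summed level of the 6 chondrocyte markers lay the other way, at 229 to 237 CPM in NC and 169 to 178 in BSG. It was 161 to 198 in M-BSG, also below NC without overlap, and 196 to 229 in M-BSG-Hot, and most of it was SOX9, at 155 to 231 CPM over all libraries. ACAN was at most 0.218 CPM with 0 counts in 3 libraries, and MATN1, MATN3, COMP and SNORC were each at most 3.49 CPM. The sum therefore does not show the direction of the markers other than SOX9. The part of these markers in the COL2A1 result was not tested.

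**Figure D2:**
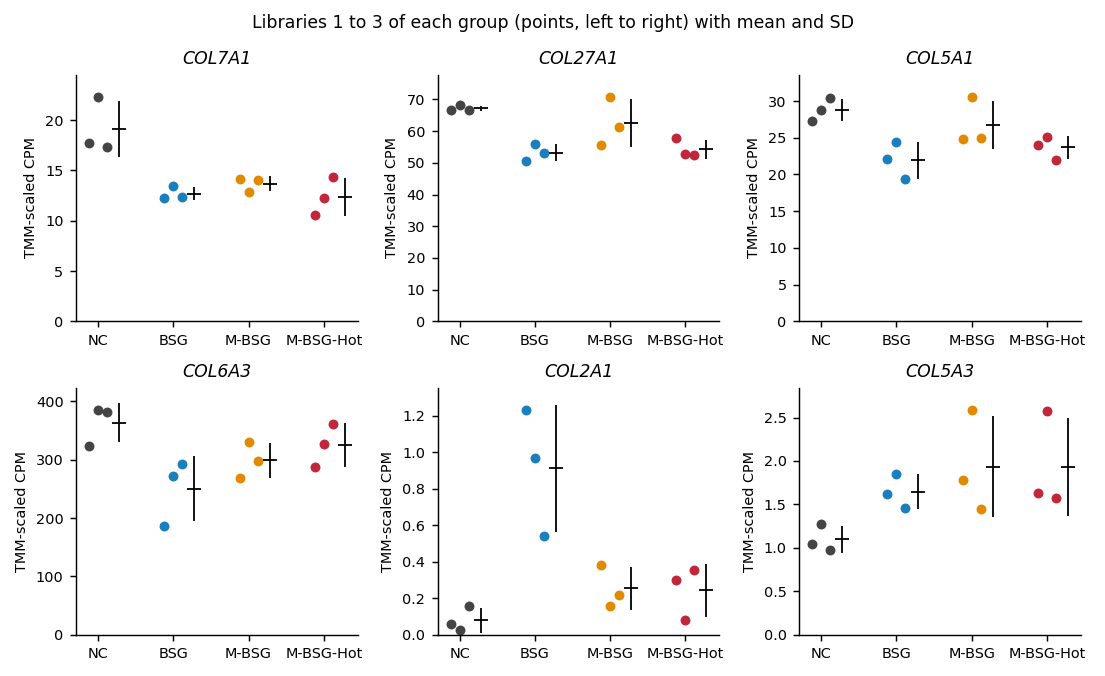
TMM-scaled CPM of 6 collagen genes in libraries 1 to 3 of each group (points, left to right), with mean and SD. COL7A1 is lower in all 9 libraries outside NC, COL2A1 is high in the 3 BSG libraries, and COL6A3 is lowest in BSG 1.

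The other fibrillar genes did not pass in BSG. COL1A1 was at 8.25, 8.54 and 8.91 CPM in the NC libraries, 8.11, 7.84 and 5.23 in BSG, 6.82, 7.59 and 8.37 in M-BSG, with 8.04, 8.77 and 7.52 in M-BSG-Hot. BSG 3 was the lowest library, and the change was -0.28 (SE 0.15, edgeR adjusted p = 0.231). COL5A2, the partner of COL5A1, was at 20.4, 24.1 and 22.7 CPM in the NC libraries, 15.0, 20.9 and 20.9 in BSG, 17.1, 29.1 and 22.8 in M-BSG, with 27.0, 21.9 and 19.6 in M-BSG-Hot. It overlapped in each comparison with NC. COL11A2, a minor fibril chain of cartilage, was at 2.27, 1.92 and 2.13 CPM in the NC libraries, 2.01, 2.25 and 1.62 in BSG, 2.41, 2.56 and 2.24 in M-BSG, with 1.79, 1.93 and 1.79 in M-BSG-Hot. COL24A1 stayed between 0.135 and 0.479 CPM, 5 to 18 counts a library.

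COL5A3, another type V chain, lay higher in all 9 libraries outside NC than in the controls and did not pass the test. It was at 1.05, 1.27 and 0.973 CPM in the NC libraries, 1.62, 1.86 and 1.46 in BSG, 1.78, 2.58 and 1.44 in M-BSG, with 1.63, 2.58 and 1.57 in M-BSG-Hot. The log2 differences from NC were 0.58 (SE 0.28), 0.82 (SE 0.27) and 0.81 (SE 0.27), with edgeR adjusted p of 0.171, 0.107 and 0.125. In M-BSG against NC it passed with DESeq2 (adjusted p = 0.0462) and with the replicate number as a block (edgeR adjusted p = 0.0464), over a range of 0.0462 to 0.348. The 3 comparisons share the NC libraries and are not independent.

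In the basement membrane class, COL4A1 and COL4A2 encode the chains of the ubiquitous type IV network. COL4A2 was at 397, 411 and 400.2 CPM in the NC libraries, 336, 384 and 375 in BSG, 373, 430.0 and 382 in M-BSG, with 441, 421 and 425 in M-BSG-Hot. COL4A1 was at 258, 281 and 274 CPM in the NC libraries, 186, 244 and 241 in BSG, 217, 279 and 251 in M-BSG, with 284, 266 and 248 in M-BSG-Hot. For both, BSG lay below NC without overlap and BSG 1 was the lowest of the 12 libraries. The BSG changes were -0.14 (SE 0.08, edgeR adjusted p = 0.215) for COL4A2 and -0.28 (SE 0.11, adjusted p = 0.113) for COL4A1. The length trend was -0.29 for COL4A1, read at 15595 bases, and -0.11 for COL4A2, read at 6446 bases. These are the lengths behind the deposited FPKM, and whether they hold for the transcripts in these cells was not tested. Without BSG 1 the changes were -0.08 for COL4A2 and -0.15 (adjusted p = 0.407) for COL4A1.

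The other basement membrane genes were lower in level. COL18A1 was at 27.4, 31.5 and 25.4 CPM in the NC libraries, 33.7, 28.1 and 27.4 in BSG, 32.7, 27.6 and 27.2 in M-BSG, with 29.3, 30.8 and 35.9 in M-BSG-Hot. COL4A5, a chain of specialised basement membranes such as that of the kidney glomerulus, was at 9.98, 13.6 and 11.5 CPM in the NC libraries, 8.78, 12.3 and 11.1 in BSG, 10.0, 13.4 and 13.2 in M-BSG, with 14.2, 13.7 and 9.26 in M-BSG-Hot. Both overlapped with NC in each comparison. COL4A6, its neighbour on the X chromosome, was at 2.98, 2.49 and 2.71 CPM in the NC libraries, 2.15, 2.46 and 1.73 in BSG, 2.76, 2.93 and 2.43 in M-BSG, with 3.40, 2.31 and 1.95 in M-BSG-Hot. The BSG libraries lay below NC for COL4A6 (log2 fold change -0.37, SE 0.22, edgeR adjusted p = 0.265). COL4A4 was tested at 3 to 18 counts a library, and COL4A3 and COL15A1 held 1 to 10.

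Type VI collagen, a beaded filament that surrounds cells, was represented by COL6A1, COL6A2 and COL6A3. COL6A2 was at 175, 174 and 170.0 CPM in the NC libraries, 172, 155 and 152 in BSG, 175, 153 and 159 in M-BSG, with 167, 177 and 204 in M-BSG-Hot. COL6A1 was at 64.8, 65.3 and 66.1 CPM in the NC libraries, 58.1, 60.3 and 55.3 in BSG, 65.8, 64.5 and 60.7 in M-BSG, with 59.2, 66.0 and 68.7 in M-BSG-Hot. COL6A1 lay below NC in all 3 BSG libraries (log2 fold change -0.18, SE 0.07, edgeR adjusted p = 0.133) and COL6A2 overlapped (-0.11, SE 0.09, adjusted p = 0.386). COL6A1 passed with library totals as the only scaling (adjusted p = 0.0426, range over all alternatives 0.0426 to 0.296). COL6A2 passed without BSG 1, M-BSG 1 and M-BSG-Hot 3 (0.0401, range 0.0401 to 0.608).

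Among the fibril-associated collagens, which sit on fibril surfaces, COL12A1 was the most abundant by counts. It was at 154, 175 and 177 CPM in the NC libraries, 87.2, 128 and 144 in BSG, 115, 196 and 166 in M-BSG, with 192, 150.0 and 141 in M-BSG-Hot. BSG lay below NC without overlap, with BSG 1 the lowest of the 12 (-0.49, SE 0.20, edgeR adjusted p = 0.110). Without BSG 1 the change was -0.30 (adjusted p = 0.369). It passed without a count filter (adjusted p = 0.0377) and without BSG 1, M-BSG 1 and M-BSG-Hot 3 (0.0287), and the range over all alternatives was 0.0287 to 0.369. COL16A1 was at 6.27, 6.26 and 6.68 CPM in the NC libraries, 6.77, 7.19 and 6.01 in BSG, 6.27, 6.34 and 5.83 in M-BSG, with 3.42, 4.99 and 5.38 in M-BSG-Hot. Its 3 M-BSG-Hot libraries were the lowest of the 12.

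Type IX collagen, another fibril-associated type, showed only part of its chains. COL9A3 was at 42.9, 42.6 and 38.6 CPM in the NC libraries, 54.7, 43.9 and 42.2 in BSG, 53.2, 40.1 and 40.1 in M-BSG, with 39.6, 48.4 and 47.8 in M-BSG-Hot. COL9A2 was at 15.5, 16.1 and 14.6 CPM in the NC libraries, 17.1, 15.8 and 13.8 in BSG, 16.3, 14.6 and 13.5 in M-BSG, with 13.5, 16.0 and 15.7 in M-BSG-Hot. Both overlapped with NC in each comparison, and COL9A1 was under the count minimum. The COL9A3 locus overlaps that of TCFL5 in RefSeq, which held 17391 counts over all libraries against 19767 of COL9A3. COL18A1 overlaps SLC19A1, with 12692 against 13221. COL4A4 overlaps RHBDD1, which held 932 counts over all libraries against its own 117, and COL4A3 overlaps the noncoding MFF-DT, with 421 against 42. Without a statement on strand, reads of such pairs cannot be fully told apart. COL22A1, a collagen of tissue junctions, was at 0.570 to 1.07 CPM and overlapped throughout.

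The remaining tested genes, the membrane-spanning and short-chain types, passed in no comparison. COL13A1, a membrane-spanning collagen of adhesion sites, was at 98.4, 103 and 104 CPM in the NC libraries, 113, 101 and 102 in BSG, 109.9, 91.2 and 94.6 in M-BSG, with 86.2, 95.7 and 96.3 in M-BSG-Hot. M-BSG-Hot lay below NC without overlap (-0.13, SE 0.08, edgeR adjusted p = 0.463). COL17A1, a component of the hemidesmosome of epithelia, was at 10.0, 10.9 and 8.60 CPM in the NC libraries, 12.2, 9.98 and 10.0 in BSG, 9.01, 9.22 and 10.7 in M-BSG, with 11.3, 9.39 and 8.71 in M-BSG-Hot. Its groups overlapped. COL8A1 and COL8A2 encode the network-forming chains of type VIII. COL8A1 was at 7.57, 9.32 and 7.83 CPM in the NC libraries, 7.97, 10.1 and 7.93 in BSG, 7.53, 9.99 and 8.81 in M-BSG, with 9.10, 9.20 and 7.44 in M-BSG-Hot. COL8A2 was at 1.73, 2.10 and 2.23 CPM in the NC libraries, 2.21, 2.09 and 2.37 in BSG, 2.30, 2.13 and 2.37 in M-BSG, with 2.07, 2.58 and 1.87 in M-BSG-Hot. Neither passed in any comparison, and both overlapped with NC throughout. The untested COL19A1, COL20A1, COL26A1 and COL6A5 held 0 to 13 counts a library.

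**Figure D3:**
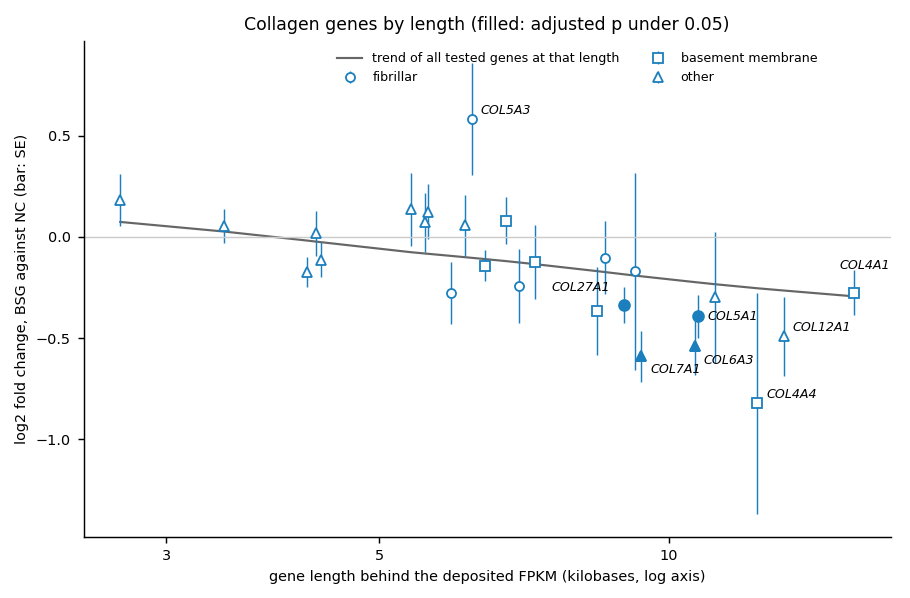
Log2 fold change of the tested collagen genes in BSG against NC (bars: SE) by the gene length behind the deposited FPKM (log axis), with the trend of all tested genes at that length as a line. COL2A1, at 3.45, lies outside the range drawn; COL7A1, COL6A3, COL27A1 and COL5A1 (filled) lie below the line, and COL4A1 lies on it.

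With the length trend taken out of each library, BSG against NC kept 2 of its 5 collagen calls, COL2A1 and COL6A3. Without BSG 1 alone, COL2A1 and COL7A1 were called. When all 3 libraries that leaned towards short genes were left out (BSG 1, M-BSG 1, M-BSG-Hot 3), 7 collagen genes were called: the 5 above, COL6A2 and COL12A1. Scaling by library totals alone shifted the median of all genes by -0.08 in this comparison and lowered the share of higher genes among all called from 46.9% to 29.9%. It called the same 5 collagen genes and COL6A1.

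In M-BSG against NC, COL7A1 was the only collagen gene called. It was lower by 0.48 on the log2 scale (log2 fold change -0.48, SE 0.12, edgeR adjusted p = 0.0329). This is 1 of 27 genes, or 3.70%, against 6.35% of all genes called (3.13% lower). Groups were apart for 3 of 27 genes, namely COL2A1, COL5A3 and COL7A1, against 27.5% of all genes. For COL2A1 the lowest M-BSG library (0.160 CPM) and the highest NC library (0.158 CPM) held the same count, so they differ only by scaling. The COL7A1 call was lost without NC 1 (adjusted p = 0.0574), NC 2 (0.178), M-BSG 1 (0.0619), M-BSG 2 (0.117), M-BSG 3 (0.0878) or M-BSG-Hot 2 (0.0562), and with the length trend removed (0.0859), where the change was -0.42. Without 1 library it was -0.36 to -0.55. Over all alternatives it ranged from 0.00663 to 0.178. The median over the 27 was -0.03, against -0.01 over all genes. COL6A3 stood at -0.28 (SE 0.14, adjusted p = 0.329) and COL2A1 at 1.61 (SE 0.73, adjusted p = 0.251). With library totals as the only scaling, the share of higher genes among all called fell from 50.7% to 37.7%.

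In M-BSG-Hot against NC, COL7A1 was again the only collagen gene called, at -0.63 (SE 0.13, edgeR adjusted p = 0.00914). It was 1 of 27, or 3.70%, against 4.91% of all genes (3.51% lower). The call was lost without NC 2 (adjusted p = 0.0603, range over all alternatives 0.000162 to 0.0603), and without M-BSG-Hot 3 the change was -0.73 (0.00678). Groups were apart for 7 of 27 genes (25.9%), against 28.0% of all genes. The fitted change of COL27A1 was -0.31 (SE 0.09, adjusted p = 0.0679). It passed with DESeq2 (0.0364), with library totals as the only scaling (0.0459), without M-BSG 1 (0.0422), without M-BSG 2 (0.0392) and without BSG 1, M-BSG 1 and M-BSG-Hot 3 (0.0157), over a range of 0.0157 to 0.219. COL16A1 stood at -0.48 (SE 0.15, adjusted p = 0.106), and passed with DESeq2 (0.0471) and without those 3 libraries (0.0270), over a range of 0.0270 to 0.299. COL5A1 stood at -0.28 (SE 0.11, adjusted p = 0.181). The share of higher genes among all called fell from 28.4% to 18.1% with library totals as the only scaling.

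**Figure D4:**
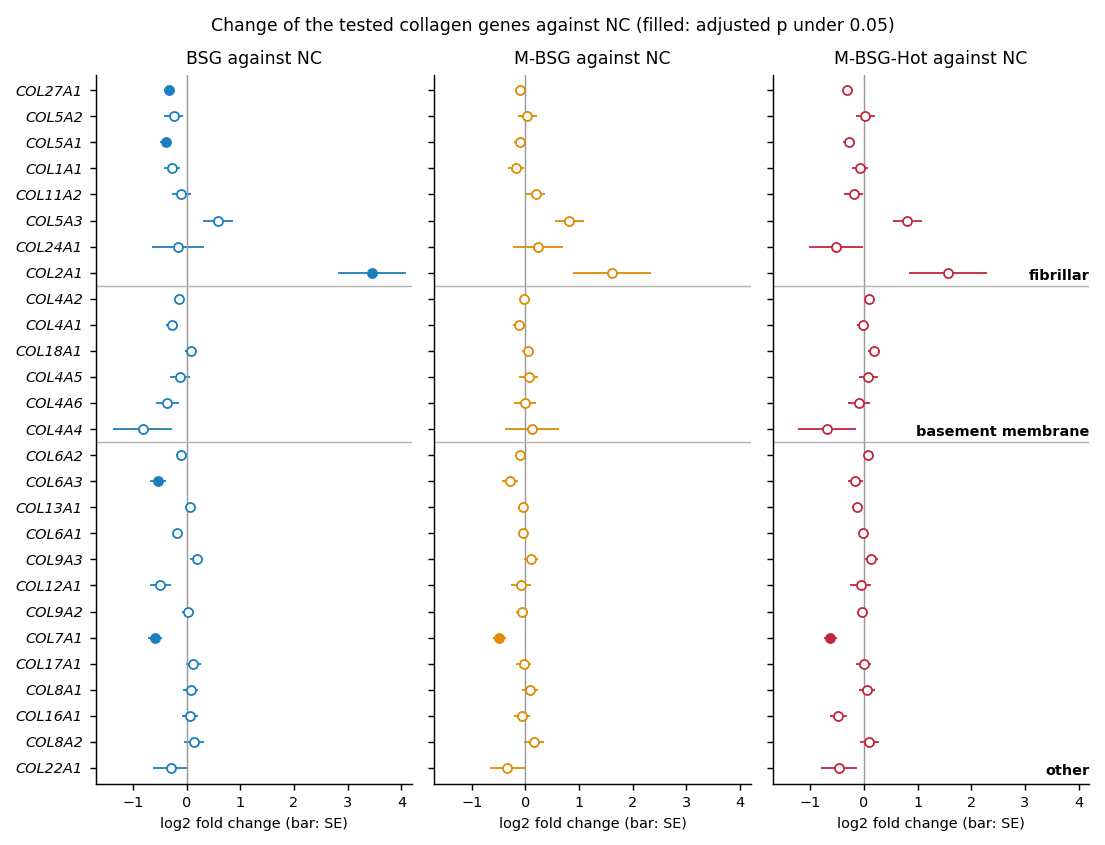
Log2 fold change (bars: SE) of the 27 tested collagen genes against NC in BSG, M-BSG and M-BSG-Hot, by class; filled points have an adjusted p under 0.05. COL7A1 is filled and left of 0 in all 3 panels, which share the NC libraries, and COL2A1 is filled in BSG.

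The groups other than NC were also compared. In M-BSG against BSG, edgeR called 0 of 27 collagen genes, with 3 at an unadjusted p under 0.05, and 0.130% of all genes. DESeq2 called 0 as well. Those 3 were COL2A1 (-1.83, SE 0.54, adjusted p = 0.563), COL5A1 (0.29, SE 0.11, adjusted p = 0.635) and COL27A1 (0.23, SE 0.09, adjusted p = 0.635). For COL2A1 all 3 M-BSG libraries lay below the BSG libraries. COL7A1 differed by 0.11 (SE 0.13, adjusted p = 0.734). The median over the 27 was 0.11, and the length trend at their lengths had a median of 0.09.

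In M-BSG-Hot against M-BSG, which share a material name and differ by the plus sign, edgeR and DESeq2 each called 0 of 27, against 0.694% of all genes by edgeR. At an unadjusted p under 0.05 there were 3: COL16A1 (-0.42, SE 0.15, adjusted p = 0.385), COL27A1 (-0.20, SE 0.09, adjusted p = 0.520) and COL11A2 (-0.38, SE 0.18, adjusted p = 0.562). COL16A1 and COL11A2 lay lower in M-BSG-Hot without overlap. COL7A1 differed by -0.14 (SE 0.13, adjusted p = 0.823), and the median over the 27 was -0.01.

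Chains that assemble into the same molecule were compared as ratios of their FPKM within a library, with no test. The COL4A1 to COL4A2 ratio was 0.268, 0.283 and 0.283 in NC and 0.229, 0.263 and 0.266 in BSG, with group means of 0.260 ± 0.0167 in M-BSG, with 0.256 ± 0.0134 in M-BSG-Hot. The size of this ratio depends on the gene lengths behind the FPKM, 15595 bases for COL4A1 and 6446 for COL4A2. Their coding sequences are near in length (1668 and 1711 codons), and in NC they held 30331 and 45061 counts. The COL6A1 to COL6A2 ratio stayed at 0.391 ± 0.00964 in NC, 0.376 ± 0.0263 in BSG, 0.407 ± 0.0255 in M-BSG, with 0.366 ± 0.0191 in M-BSG-Hot. The COL6A3 to COL6A2 ratio was 0.756, 0.903 and 0.916 in NC and 0.443, 0.713 and 0.783 in BSG. BSG 1 was the lowest, and BSG 3 lay within the range of NC. It was 0.757 ± 0.126 in M-BSG, with 0.725 ± 0.0275 in M-BSG-Hot. COL6A3 is the longest of these 3 genes, and the part of the length trend in its ratio was not tested.

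The COL5A1 to COL5A2 ratio was 0.839 ± 0.0551 in NC, 0.773 ± 0.178 in BSG, 0.781 ± 0.145 in M-BSG, with 0.685 ± 0.0925 in M-BSG-Hot. Type V collagen is usually built with more of the COL5A1 chain than of the COL5A2 chain, and in these transcripts the ratio lay under 1 in all 12 libraries. The COL9A3 to COL9A2 ratio was 4.30 ± 0.112 in NC, 4.82 ± 0.341 in BSG, 4.79 ± 0.404 in M-BSG, with 4.79 ± 0.0977 in M-BSG-Hot. Every BSG and M-BSG-Hot library was above the NC libraries, while M-BSG overlapped. The lowest BSG library, at 4.45, was close to the highest NC library, at 4.43. In BSG against NC the length trend was 0.07 for COL9A3 and -0.02 for COL9A2. The part of that trend in this ratio was not tested, nor was that of TCFL5, whose locus overlaps that of COL9A3.

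**Figure D5:**
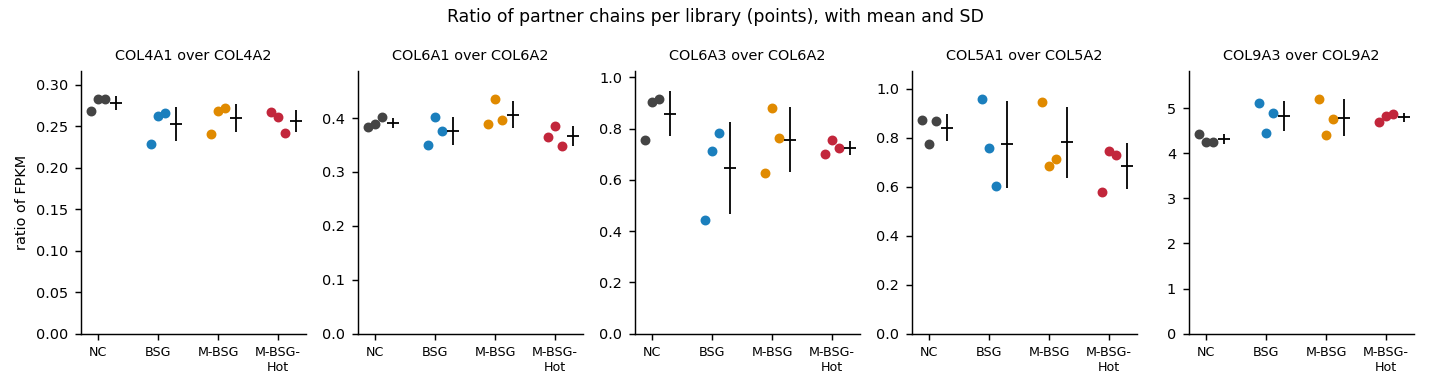
Ratio of FPKM between partner chains in each library (points), with mean and SD by group. The COL6A3 to COL6A2 ratio is lowest in BSG 1, at 0.443, and the COL6A1 to COL6A2 ratio lies near 0.39 in NC.

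A collagen pathway list of 77 genes covered the proteins that modify, fold, cleave, crosslink, bind and degrade collagen. Of these, 74 were in the tables and 69 were tested. In BSG against NC, 2 fell, LOX and AGRN, and 0 rose, against 6.22% lower and 5.50% higher of all genes. The median was -0.13, against -0.02 over all genes. In M-BSG against NC and in M-BSG-Hot against NC, 1 rose, MMP1 each time, and 0 fell, against 3.22% and 1.40% of all genes called higher. In M-BSG against BSG 0 of 69 passed edgeR, with 9 at an unadjusted p under 0.05, and in M-BSG-Hot against M-BSG 0 passed, with 10. DESeq2 called 1 in the latter.

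The enzymes that hydroxylate and glycosylate the chains inside the cell were called in no comparison (0 of 14). The shares of all genes called, 11.7% in BSG, 6.35% in M-BSG and 4.91% in M-BSG-Hot against NC, 0.130% in M-BSG against BSG and 0.694% in M-BSG-Hot against M-BSG, apply to each of the role counts given here. They include P4HA1 and P4HB, subunits of prolyl 4-hydroxylase, which stabilises the helix. P4HA1 was at 50.1 ± 2.22 CPM in NC and 51.6 ± 4.23 in BSG, and P4HB at 402 ± 9.21 and 448 ± 35.0. PLOD2, the lysyl hydroxylase of telopeptides, was at 80.5 ± 5.01 and 78.5 ± 3.11. Of the folding and export genes 0 of 10 were called. SERPINH1, the collagen chaperone HSP47, was at 155 ± 10.4 CPM in the NC libraries, 154 ± 1.89 in BSG, 139 ± 10.5 in M-BSG, with 157 ± 13.9 in M-BSG-Hot.

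The propeptide proteases (0 of 7 called) include BMP1, which cleaves the C-terminal propeptide of fibrillar procollagens. BMP1 was at 31.5 ± 0.809 CPM in NC and 29.0 ± 1.55 in BSG. Among the crosslinking and assembly genes, 1 of 9 fell in BSG, against 6.22% of all genes. LOX, which oxidises lysines for crosslinks, was at 42.6, 47.2 and 45.6 CPM in NC and at 30.6, 35.5 and 38.1 in BSG (-0.38, SE 0.11, edgeR adjusted p = 0.0461). The BSG libraries lay below NC, but 7 of the 12 libraries could each end the call when left out (NC 1, NC 2, NC 3, BSG 1, BSG 2, M-BSG 3 or M-BSG-Hot 2), and the adjusted p over all alternatives was 0.0122 to 0.167. LOXL2 was at 105 ± 4.41 and 85.9 ± 4.18 CPM (-0.29, SE 0.10, adjusted p = 0.0689), and passed with library totals only, with the length trend removed, without M-BSG 1 and without BSG 1, M-BSG 1 and M-BSG-Hot 3 (range over all alternatives 0.0255 to 0.191). SPARC, a collagen-binding matrix protein, was at 329.0 ± 8.02 and 340.4 ± 7.07 CPM.

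Collagen receptors were called in no comparison (0 of 8, against 0.130% to 11.7% of all genes by comparison). All 8 had negative values in BSG against NC, with a median of -0.16 beside a length trend of -0.12. ITGB1, the shared subunit of collagen-binding integrins, was at 832 ± 53.4 CPM in NC and 754 ± 99.1 in BSG. Of the basement membrane partners, 1 of 15 fell in BSG, AGRN, a heparan sulfate proteoglycan, against 6.22% of all genes. Values were negative for 14 of the 15, with a median of -0.31 beside a length trend of -0.15. Libraries were apart from NC for 9 (38.7% of all genes), and 8 had an unadjusted p under 0.05. The shares of all genes with negative values or with such a p are not given here, so these counts have no background. AGRN was at 155, 157 and 158 CPM in NC and at 121, 145 and 121 in BSG (-0.28, SE 0.08, edgeR adjusted p = 0.0424). Its call was lost without NC 1, NC 2, NC 3, BSG 1, BSG 3, M-BSG 3 or M-BSG-Hot 2, and with the length trend removed it was -0.12 (adjusted p = 0.314, range over all alternatives 0.00928 to 0.314).

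Among the proteases that degrade collagen, MMP1 had the highest FPKM of the list in NC, 1569 ± 9.82. MMP1, an interstitial collagenase that cuts the intact helix of fibrillar collagens, was at 3002, 2973 and 2978 CPM in NC and at 4076, 3008 and 3439 in BSG. It was at 4213, 3928 and 3515 in M-BSG and at 4308, 3924 and 4120.3 in M-BSG-Hot. NC lay below every other library. The log2 fold change was 0.38 (SE 0.10, edgeR adjusted p = 0.0424) in M-BSG and 0.46 (SE 0.10, adjusted p = 0.0182) in M-BSG-Hot, and 0.23 (SE 0.10, adjusted p = 0.145) in BSG, where it passed without BSG 2. The M-BSG call was lost without NC 1, NC 2, NC 3, BSG 3, M-BSG 1, M-BSG 2, M-BSG-Hot 2 or M-BSG-Hot 3 (range over all alternatives 0.00339 to 0.140). The M-BSG-Hot call was lost without NC 1, NC 2, NC 3, M-BSG-Hot 1 or M-BSG-Hot 3 (range 0.000125 to 0.0784). MMP14, a membrane-bound collagenase, was at 183 ± 6.65 CPM in NC and 212 ± 15.1 in M-BSG-Hot (0.21, SE 0.08, adjusted p = 0.202). MMP2, a gelatinase, was at 62.7 ± 1.91 and 70.5 ± 4.46 CPM (0.17, SE 0.07, adjusted p = 0.250).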

How the data were processed

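Per the labels' protocols, the 12 libraries of 143B cells were built from total RNA using the SMARTER mRNA-Seq kit. The authors deposited whole, unnormalised counts per gene symbol, used for all tests, and FPKM values, used for levels between genes. 100% of the FPKM values above 0 equal the count divided by gene length and library total (relative tolerance 1e-06). Not given in the sources used here are aligner, counting program and strand. GRCm38 and mm10, which are mouse builds, stand in the submitters' processing notes beside tables of human symbols, and the build used for counting was not settled. Coordinates and upstream sequences come from RefSeq's GRCh38.p14 table, and coding sequences from GENCODE 29. All 34 symbols matched RefSeq directly.

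Counts were tested with edgeR 4.0.16 in R 4.3.3: TMM factors (0.951 to 1.05), filterByExpr with a minimum count of 10 (15407 genes kept), and quasi-likelihood models fitted to the 12 libraries together, each group having its own mean. The 5 comparisons used Benjamini-Hochberg adjustment over all genes tested, with calls under 0.05. Counts of negative values and of unadjusted p under 0.05 are given without their shares over all genes, so they have no background. The approximate SE is |log2 fold change| over the root of the F statistic. With 3 libraries against 3, a two-sided permutation test of a single gene cannot go below 0.1, so none was run. The fit was also run on simulated counts with known changes, and that result is not used here. Alternatives were other scalings, other filters (none, or a minimum count of 50), DESeq2 1.42.0, a replicate block, removal of each library's trend with gene length (lowess span 0.3), and leaving out libraries. Collagen genes with a group mean of at least 1 CPM or a call are named with every library's value, and pathway genes are named if called or on a list of 11. The collagen genes, classes and pathway list were chosen with earlier results of these data known. Of the pathway list, DCN, LUM and FMOD were not among the symbols listed.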

Additional observations from a re-analysis of the deposited data

How the results depend on the processing

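The number of collagen genes called in BSG against NC was 5, and 2 with the length trend removed, 4 with the minimum count of 50, 6 with library totals only, 6 without a count filter and 7 without BSG 1, M-BSG 1 and M-BSG-Hot 3. It was 1 to 5 when 1 library at a time was left out, with the lowest number without NC 2. In M-BSG against NC it was 1, and 2 with DESeq2 or with the replicate block (COL5A3 and COL7A1), 0 with the length trend removed, and 0 to 1 when 1 library was left out. In M-BSG-Hot against NC it was 1, and 2 with library totals as the only scaling, 3 with DESeq2, 3 without those 3 libraries, and 0 to 2 when 1 library was left out. In the last 2 comparisons it was 0 in every setting.

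Of the pathway list, the number called in BSG against NC was 2, and 1 with RLE size factors, 6 with library totals only, 8 without a count filter, 8 with DESeq2, 4 with the replicate block, 8 with the length trend removed, 11 without those 3 libraries, and 0 to 9 when 1 library was left out. In M-BSG against NC it was 1, and 2 with library totals only, 0 with the minimum count of 50, 2 with DESeq2, 3 with the length trend removed, 4 without the 3 libraries, and 0 to 1 when 1 was left out. In M-BSG-Hot against NC it was 1, and 2 with DESeq2, 3 with the length trend removed, 3 without the 3 libraries, and 0 to 1 when 1 was left out. In M-BSG against BSG it was 0, and 2 without the 3 libraries. In M-BSG-Hot against M-BSG it was 0, and 1 with DESeq2. The cause of these differences was not tested, apart from settings with fewer libraries or other genes tested.

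The summed collagen share of counts without COL1A1 and COL6A3 was 0.150% in NC, 0.126% in BSG, 0.138% in M-BSG and 0.143% in M-BSG-Hot, lower because those genes are left out. With all 34 genes and TMM-scaled totals the share was 0.182%, 0.153%, 0.170% and 0.178% in the same order. Values of single genes were followed for the 27 tested collagen genes and the list of 11 pathway genes over the 5 comparisons, and for AGRN and MMP1 where called, but not for the rest of the pathway list. Of these, 18 changes were called in some setting: 287 of their alternative values kept their side of the threshold, 17 passed it and 55 lost it, and none changed direction. Among the 175 other changes of the same genes, none called in any setting, 80 changed sign in some setting.

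No pairing by replicate number was seen: deviations of same-numbered libraries correlated above 0.1 in 4 of 18 pairs (-0.287 to 0.408), against 8 of 36 pairs with different numbers. BSG 1 correlated with M-BSG 1 at 0.408 and with M-BSG-Hot 3 at 0.278, and the latter 2 with each other at 0.289. A pairing could be masked by these libraries, which leaned towards short genes. The replicate block moved no count of calls other than those given. COL4A4 and COL24A1 rested on 3 to 18 and 5 to 18 counts a library, where a difference within counting error is not detectable.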
